A study of Mus musculus with 6 samples.

Results

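A set of 9 genes of germ cell specification and germ line RNA control were followed in sorted cells of the mouse embryo, 4 that specify primordial germ cells or mark them from early on (Prdm1, Prdm14, Tfap2c and Dppa3) and 5 that encode RNA-binding or RNA-remodelling proteins (Nanos2, Nanos3, Dnd1, Dazl and Ddx4). They were chosen by name, and all 9 had a probe set that the platform annotation gave to 1 gene, out of 19937 genes with such a probe set. For Dppa3, which had 2 such probe sets, the one with the highest mean over the 6 arrays stood for the gene.

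Primordial germ cells are the founders of eggs and sperm. They are set aside in the early embryo by BMP signals, which switch on the transcription factors PRDM1 (BLIMP1), PRDM14 and TFAP2C (AP-2 gamma), and DPPA3 (STELLA) appears soon afterwards. The cells then migrate through the hindgut into the genital ridges, where DAZL and DDX4 (mouse vasa homologue) come on, while NANOS3 and DND1 are needed for their survival on the way. They carry c-kit on their surface, and mouse germ cells of this stage also carry CD31, so a sort on both antigens can take them along with endothelium and blood progenitors.

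The tissue was the aorta, gonad and mesonephros region of CD1 mouse embryos at stage E11.5, which contains both the dorsal aorta and the genital ridges. Cells positive for CD31 and negative for CD45 and Ter119 were separated by c-kit. Both resulting populations, c-kit-positive and c-kit-negative, come from the time point labelled T0 and have 3 arrays each, described as biological replicates. The labels do not say how many embryos went into a sample, so the tests rest on array-to-array spread alone. Values are log2 expression values (RMA) with array medians from 5.42 to 5.52; they carry no detection calls, so no gene is called absent, and precision is limited by having 3 arrays a population. Kit, the gene of the antigen that divided the cells, stood at 9.53 to 9.59 in c-kit-positive and at 8.19 to 8.27 in c-kit-negative arrays, in the direction of the labels. Pecam1, which encodes CD31, was at 8.94 to 9.23 in c-kit-positive and 10.00 to 10.04 in c-kit-negative arrays, and Ptprc, which encodes the CD45 that the gate selects against, at 8.37 to 8.60 in c-kit-positive and 8.21 to 9.40 in c-kit-negative arrays.

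The comparison asked how strongly this germ line set differed across the c-kit divide within the CD31 gate. In c-kit-positive cells 6 of the 9 genes were higher and 0 were lower, by limma's moderated test with p adjusted (Benjamini-Hochberg) over all genes and a threshold of 0.05. Over all genes tested 2.71% were called higher and 4.7% lower. The 6 were Prdm14, Dazl, Ddx4, Tfap2c, Dppa3 and Prdm1, in order of their differences with Dppa3 taken by its brighter probe set; its dimmer probe set would put it first. Nanos3, Dnd1 and Nanos2 did not pass. Every one of the 9 differences was above 0, against 12177 of 19937 over all genes. The median of the 9 was 0.87 on the log2 scale, against 0.072 over all genes. This median is the value of Dppa3 by its brighter probe set. With the dimmer one the middle gene would be Tfap2c, at 1.13. For 7 of the 9 genes all 3 c-kit-positive values lay above all 3 c-kit-negative values, which held for 16.2% of all genes. These are bulk RNA measurements, so a change in the share of germ cells and a change in RNA per germ cell cannot be told apart.

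**Figure D1:**
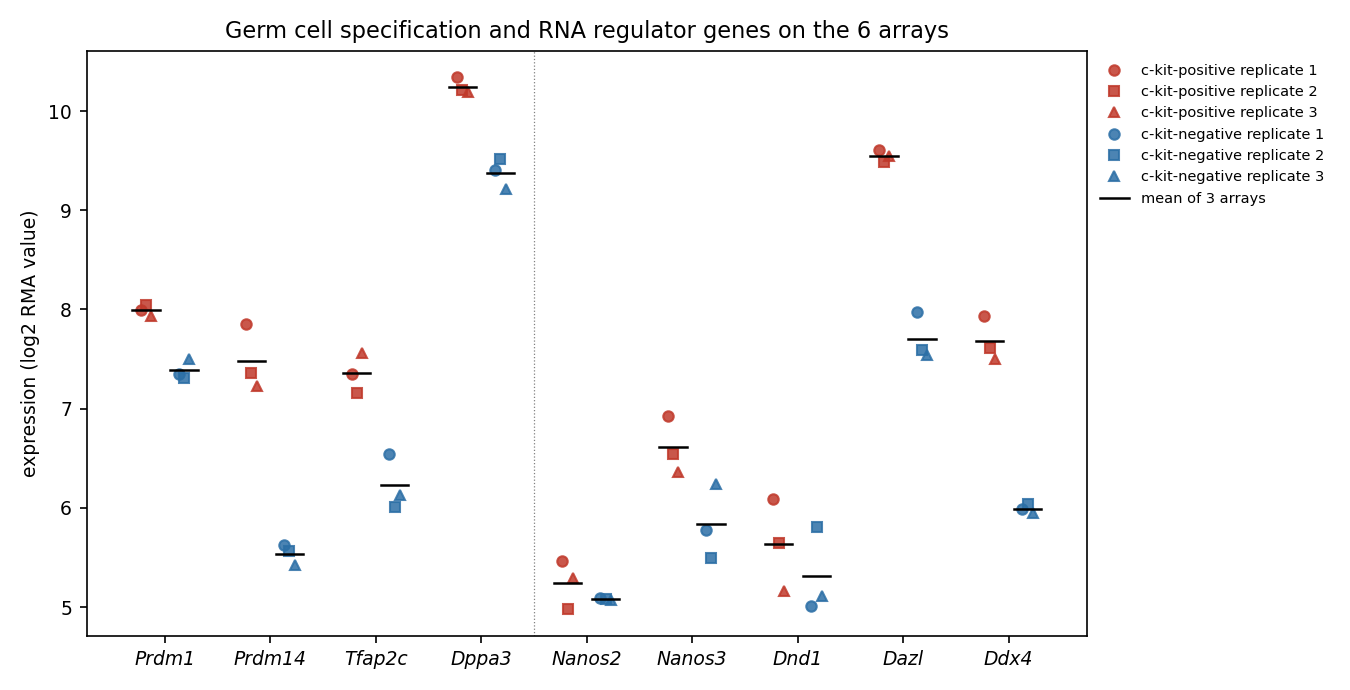
Log2 expression values (RMA, vertical axis) of the 9 genes on each array, with c-kit-positive arrays in red on the left and c-kit-negative arrays in blue on the right of each pair; black bars are means of 3 arrays. The red and blue points of Nanos2 and Dnd1 overlap, and those of the other 7 genes do not; Dppa3 is shown by its brighter probe set.

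Prdm14 stood out among the specification factors, with a difference exceeded only by that of the dimmer Dppa3 probe set. PRDM14 is a zinc finger transcription factor that is almost specific to the germ line and to pluripotent cells, where it helps to keep the pluripotency network on and DNA methylation low. Its values were 7.85, 7.36 and 7.23 in c-kit-positive replicates 1, 2 and 3, against 5.63, 5.57 and 5.42 in c-kit-negative replicates 1, 2 and 3. The populations were far apart compared with the spread within each, and c-kit-positive replicate 1 was the highest array. The difference of 1.94 ± 0.18 (SE, 3.83-fold, adjusted p = 0.000509, limma) was the 13th largest rise of the 19937 genes.

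Tfap2c followed. TFAP2C acts downstream of PRDM1 in germ cell specification and is also a factor of trophoblast and surface ectoderm. It was at 7.35, 7.16 and 7.56 in c-kit-positive replicates 1 to 3 and at 6.54, 6.01 and 6.13 in c-kit-negative replicates 1 to 3. The lowest c-kit-positive array stood above the highest c-kit-negative array, that of replicate 1. The difference was 1.13 ± 0.18 (SE, 2.18-fold, adjusted p = 0.0078, limma).

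Prdm1 showed the smallest difference of the 6 called genes. PRDM1 is a transcriptional repressor that shuts off the somatic programme in nascent germ cells, and outside the germ line it is made by plasma cells, macrophages and several epithelia. It was at 7.99, 8.05 and 7.93 in c-kit-positive replicates 1 to 3 and at 7.35, 7.31 and 7.50 in c-kit-negative replicates 1 to 3. The values were tight within each population and did not overlap, with SDs of 0.06 and 0.10. The difference of 0.60 ± 0.13 (SE, 1.52-fold, adjusted p = 0.0277, limma) had a 95% interval of 0.30 to 0.90, which does not reach that of Prdm14, 1.52 to 2.36. The call for Prdm1 was lost whichever of the 6 arrays was left out (differences of 0.56 to 0.66, adjusted p of 0.0507 to 0.0925, limma).

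Dppa3 encodes a small protein that protects DNA methylation in the early embryo and marks germ cells from their specification onwards. Its brighter probe set (10604135) gave 10.34, 10.21 and 10.19 in c-kit-positive replicates 1 to 3 and 9.41, 9.52 and 9.21 in c-kit-negative replicates 1 to 3, a difference of 0.87 ± 0.14 (SE, 1.83-fold, adjusted p = 0.00775, limma). The dimmer probe set (10541515) gave 10.23, 9.44 and 10.13 in c-kit-positive and 7.92, 7.44 and 8.02 in c-kit-negative replicates 1 to 3. Both probe sets separated the populations, but the dimmer one did so by 2.14 ± 0.25 (SE, 4.41-fold, adjusted p = 0.00197 over all 21640 single-gene probe sets, limma), and the 95% intervals of the differences, 1.57 to 2.71 for the dimmer and 0.55 to 1.19 for the brighter, do not overlap. The annotation gives both the same transcript, and a pseudogene, Dppa3-ps, is listed in the RefSeq gene table; how far its sequence contributes to either probe set was not tested, so the size of the Dppa3 difference is uncertain between these values. With the mean of its probe sets the difference was 1.50.

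**Figure D2:**
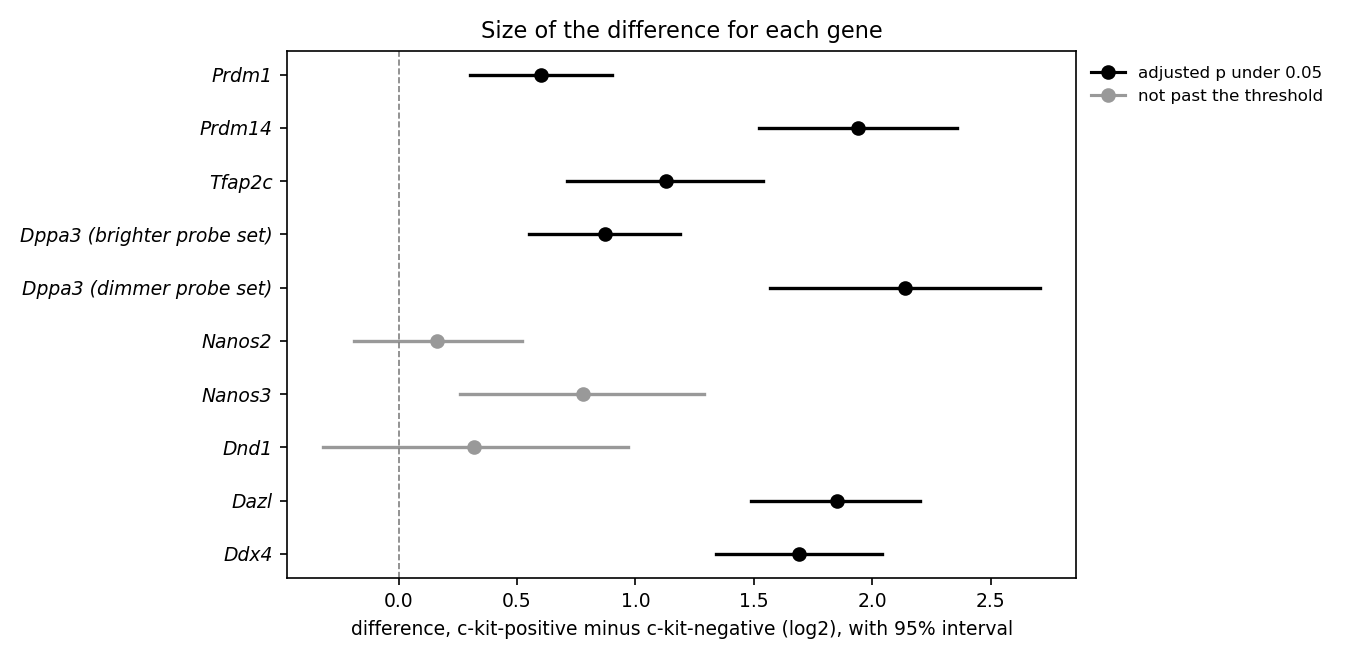
Difference in log2 expression, c-kit-positive minus c-kit-negative (horizontal axis), with 95% intervals from limma, for the 9 genes and the dimmer Dppa3 probe set. Black marks an adjusted p under 0.05; Nanos2, Nanos3 and Dnd1 are grey, and the interval of Nanos3, 0.26 to 1.29, lies above 0 although its adjusted p does not pass.

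Of the RNA regulators, Dazl and Ddx4 rose and the other 3 did not pass. DAZL binds the untranslated ends of germ line messages and controls their translation, and it licenses germ cells for sexual differentiation. Dazl was at 9.61, 9.49 and 9.55 in c-kit-positive replicates 1 to 3, against 7.97, 7.59 and 7.54 in c-kit-negative replicates 1 to 3. The c-kit-positive arrays were nearly level (SD 0.06), and none of the c-kit-negative arrays came near them. The difference was 1.85 ± 0.15 (SE, 3.60-fold, adjusted p = 0.000267, limma), the 16th largest rise of all genes.

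DDX4 is an RNA helicase of the germ granules in which piRNA precursors and repressed messages gather. Ddx4 was at 7.93, 7.61 and 7.50 in c-kit-positive replicates 1 to 3 and at 5.99, 6.04 and 5.95 in c-kit-negative replicates 1 to 3. The c-kit-negative arrays were nearly level and lay below every c-kit-positive array. The difference was 1.69 ± 0.15 (SE, 3.23-fold, adjusted p = 0.000389, limma), the 33rd largest rise. Prdm14, Dazl and Ddx4 also passed in limma without variance moderation (adjusted p of 0.0469, 0.0307 and 0.0317), under which 0.331% of all genes were called higher; Tfap2c, Dppa3 and Prdm1 did not pass there (0.102, 0.0561 and 0.0535).

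NANOS proteins are zinc finger repressors that, with Pumilio and the CCR4-NOT deadenylase, silence target messages. NANOS3 protects migrating germ cells from apoptosis, while NANOS2 comes on in male germ cells after sex determination. Nanos3 was at 6.93, 6.54 and 6.36 in c-kit-positive replicates 1 to 3 and at 5.78, 5.49 and 6.24 in c-kit-negative replicates 1 to 3. The populations did not overlap, but c-kit-negative replicate 3 came close to c-kit-positive replicate 3. The difference of 0.78 ± 0.22 (SE, 1.71-fold) had an unadjusted p under 0.05 but did not pass over all genes (adjusted p = 0.0819, limma). It passed without c-kit-negative replicate 3, at 0.97 (adjusted p = 0.0466, limma).

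Nanos2 was at 5.46, 4.98 and 5.29 in c-kit-positive replicates 1 to 3 and at 5.09, 5.08 and 5.07 in c-kit-negative replicates 1 to 3. The c-kit-positive values lay on both sides of the c-kit-negative ones. The difference of 0.16 had a 95% interval of -0.19 to 0.52 (adjusted p = 0.614, limma). A measured rise as large as that of Prdm14, Dazl or Ddx4 lies outside this interval. Each Nanos2 value lay below the median of its array, though, and background correction can compress fold changes, so the interval bounds the measured difference only.

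Dnd1 encodes an RNA-binding partner of NANOS proteins whose loss, in the Ter mutation, depletes germ cells and gives testicular tumours in some mouse strains. It was at 6.09, 5.65 and 5.16 in c-kit-positive replicates 1 to 3 and at 5.01, 5.81 and 5.11 in c-kit-negative replicates 1 to 3. The values overlapped widely and were the most scattered of the set, with SDs of 0.47 and 0.43. The difference of 0.32 had a 95% interval of -0.32 to 0.97 (adjusted p = 0.57, limma), an interval that contains both 0 and the size seen for Prdm1.

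The promoters of the RNA regulators are shown as background. Some germ line promoters rich in CG dinucleotides are known to be methylated in somatic cells and demethylated in germ cells. Dazl and Ddx4 rose while the genes of the NANOS pair did not pass, although the Nanos3 values separated the populations. A part of promoter methylation in these differences was not tested. The windows are RefSeq sequences of GRCm38.p6, from 250 bases before to 50 after a gene start, printed 5′ to 3′ on the gene's strand with each CG in capitals. They lie at chr17:50293571-50293870 (minus strand) for Dazl, chr13:112652261-112652560 (minus) for Ddx4, chr7:18987274-18987573 (plus) for Nanos2 and chr8:84176503-84176802 (minus) for Nanos3.
Dazl: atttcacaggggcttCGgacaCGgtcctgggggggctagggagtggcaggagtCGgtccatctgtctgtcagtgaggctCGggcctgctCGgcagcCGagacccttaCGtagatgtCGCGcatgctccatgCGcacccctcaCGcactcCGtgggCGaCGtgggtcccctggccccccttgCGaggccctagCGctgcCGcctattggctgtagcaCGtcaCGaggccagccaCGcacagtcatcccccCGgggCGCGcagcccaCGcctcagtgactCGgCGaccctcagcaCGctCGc
Ddx4: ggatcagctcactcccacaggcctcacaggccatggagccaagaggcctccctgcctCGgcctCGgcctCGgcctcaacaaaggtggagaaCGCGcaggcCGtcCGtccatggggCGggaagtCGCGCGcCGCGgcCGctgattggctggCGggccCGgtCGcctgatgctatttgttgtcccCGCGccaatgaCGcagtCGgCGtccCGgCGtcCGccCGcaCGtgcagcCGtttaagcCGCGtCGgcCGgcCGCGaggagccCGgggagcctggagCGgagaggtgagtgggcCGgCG
Nanos2: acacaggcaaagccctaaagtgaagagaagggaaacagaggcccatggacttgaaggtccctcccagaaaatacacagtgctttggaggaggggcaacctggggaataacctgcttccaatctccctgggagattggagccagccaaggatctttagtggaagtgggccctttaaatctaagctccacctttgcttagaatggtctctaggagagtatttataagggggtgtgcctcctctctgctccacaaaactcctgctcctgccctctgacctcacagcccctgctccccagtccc
Nanos3: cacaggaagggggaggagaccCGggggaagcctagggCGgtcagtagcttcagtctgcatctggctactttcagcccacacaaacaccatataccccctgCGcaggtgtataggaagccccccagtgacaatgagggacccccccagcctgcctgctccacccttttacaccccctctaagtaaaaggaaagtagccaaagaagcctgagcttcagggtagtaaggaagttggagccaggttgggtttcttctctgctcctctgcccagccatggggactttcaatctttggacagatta

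The Dazl window held 28 CG dinucleotides and the Ddx4 window 38, more than 85.8% and 95% of the 32851 RefSeq promoter windows of that length, whose median was 7. The Nanos2 window held 0 and the Nanos3 window 3. Prdm1 had a window too, at chr10:44458699-44458998 (minus strand), with 20. The table held windows for these 5 of the 9 genes. The split by CG content rests on 4 RNA regulators and on which of them passed, and is a description without a test. It does not follow the size of the difference throughout: Nanos3 differed by 0.78 and Prdm1, with its richer window, by 0.60. Dnd1, which did not pass, had no window. Methylation was not measured in these samples.

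A set of 5 short motifs was searched on both strands of the same windows. The palindromic TFAP2 motif GCCNNNGGC was found in 1 of the 5, at base 30 of the Nanos3 window, and in 16.6% of all windows. The E2F motif TCCCGC, present in 20.0% of windows, and the E-box CACGTG, present in 7.15%, were each found once in the Ddx4 window, from base 115 and from base 222, without overlap. The letters GTGAAAG of PRDM1 (4.24% of windows) and GGTCTCTAA of PRDM14 (0.256%) were in none of the 5. A match is a description of the letters in the window, not of a bound site.

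**Figure D3:**
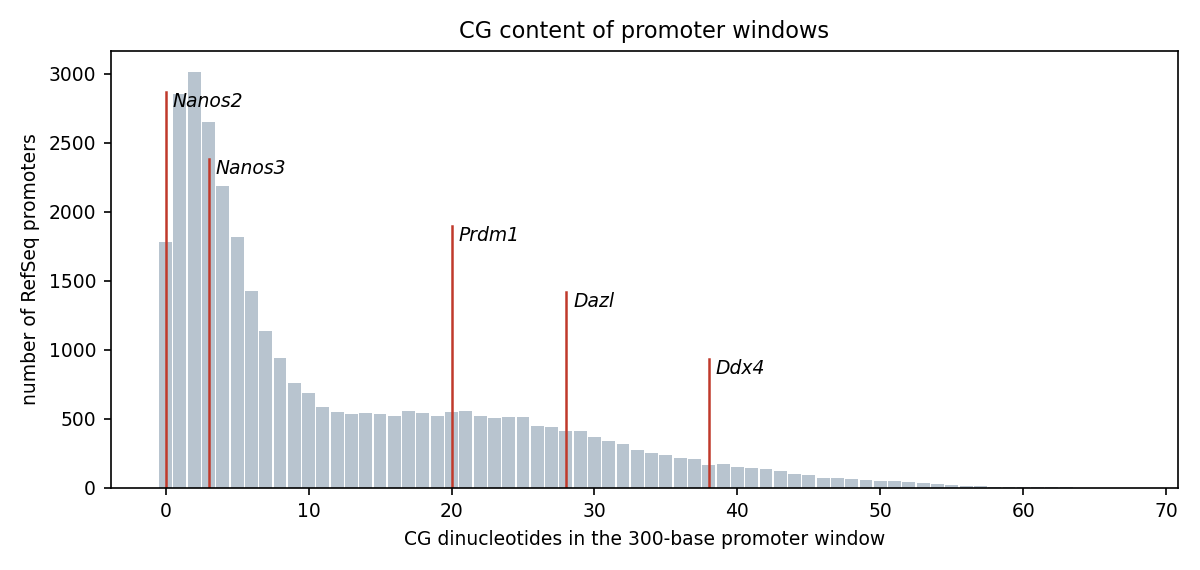
Number of RefSeq promoter windows (vertical axis) by their count of CG dinucleotides in 300 bases (horizontal axis, grey bars), with red lines at the 5 windows of the set. Nanos2 and Nanos3 sit at 0 and 3, in the CG-poor peak, and Prdm1, Dazl and Ddx4 at 20, 28 and 38; the heights of the red lines carry no meaning.

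Upstream of these factors in the early embryo, BMP ligands act through receptors and SMAD proteins, and WNT signals act through beta-catenin. The cells here were taken at E11.5, so the values do not measure the induction step itself. Of 17 listed genes of this induction step 16 were measured, and 6 fell and 1 rose in c-kit-positive cells, with a median difference of -0.35. Bmp4, the ligand that induces germ cells, was at 6.47, 5.47 and 6.16 in c-kit-positive and at 7.41, 7.75 and 7.73 in c-kit-negative replicates 1 to 3 (3.03-fold lower, adjusted p = 0.00675, limma). The receptor gene Bmpr2 was 2.15-fold lower, the beta-catenin gene Ctnnb1 1.73-fold and Smad5, a transducer of BMP signals, 1.51-fold lower. Endothelial cells also use these genes, and the endothelial markers were lower on the same arrays; their part in these falls was not tested. The gene that rose was Ifitm3 (fragilis), an interferon-inducible membrane protein gene that nascent germ cells express, at 11.27, 11.00 and 11.31 in c-kit-positive and 10.40, 10.16 and 10.53 in c-kit-negative replicates 1 to 3 (1.78-fold, adjusted p = 0.016, limma). Only 3 genes fell without c-kit-negative replicate 1, 2 or 3, Smad5 passed in no fit with an array left out, and Ifitm3 passed only without replicate 2 of the c-kit-positive or replicate 3 of the c-kit-negative arrays. Without c-kit-positive replicate 2, 2 genes of the list rose, Ifitm3 and Lin28a, with Lin28a named after its values were seen.

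PRDM1 and PRDM14 repress genes together with the methyltransferase PRMT5, the corepressor CBFA2T2 and Polycomb proteins. Of 11 such cofactor genes 2 rose and 0 fell, with a median difference of 0.24. Differences were above 0 for 10 of the 11, and for 12177 of the 19937 genes tested. The 2 that rose were Eed (1.55-fold) and Suz12 (1.41-fold), both subunits of Polycomb repressive complex 2 (adjusted p = 0.0241 and 0.049, limma). With the mean of its probe sets Eed had a difference of 0.47 and did not pass (adjusted p = 0.133, limma). With any 1 array left out neither passed (adjusted p of 0.0528 to 0.0799 for Eed and 0.0981 to 0.135 for Suz12), and 1 other gene of the list, Wdr77, named after its values were seen, did without c-kit-negative replicate 3.

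Of 10 measured genes that PRDM1 or PRDM14 is known to hold down in germ cells or embryonic stem cells, 1 rose and 0 fell, with a median difference of 0.00. It was Dnmt3b, a DNA methyltransferase gene that PRDM14 represses in embryonic stem cells, at 7.69, 8.13 and 7.39 in c-kit-positive and 6.56, 6.87 and 6.57 in c-kit-negative replicates 1 to 3 (2.10-fold higher, adjusted p = 0.0164, limma). Its values did not overlap between the populations, and the call was lost without c-kit-negative replicate 1 or 3 (adjusted p = 0.0615 and 0.0601). Prdm14 and Dnmt3b were both higher in c-kit-positive cells, and an action of PRDM14 on Dnmt3b was not tested. All 3 c-kit-positive values lay above all 3 c-kit-negative values for 4 of the 10 genes, and below them for 2. Over all genes this held for 3221 and 2123 of 19937.

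The partners through which NANOS, DND1 and DAZL act on messages showed 1 rise and 0 falls among 19 measured genes of deadenylation, decapping and Pumilio binding, with a median difference of 0.05. The gene that rose was Cpeb1, which encodes a regulator of cytoplasmic polyadenylation in germ cells, at 6.57, 6.54 and 6.78 in c-kit-positive and 5.69, 5.30 and 5.14 in c-kit-negative replicates 1 to 3 (2.38-fold, adjusted p = 0.0037, limma). None of the Cnot genes of the deadenylase passed.

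Relatives of the 9 genes in the same protein families were examined next. Of 19 measured genes of the PRDM, AP-2, NANOS, DAZ and DEAD-box families, 0 rose and 1 fell, with a median difference of -0.05. The gene that fell was Mecom, a PRDM family factor of blood stem cells and endothelium, at 6.29, 5.86 and 4.99 in c-kit-positive and 8.09, 8.60 and 7.94 in c-kit-negative replicates 1 to 3 (5.64-fold lower, adjusted p = 0.00262, limma). Its difference of -2.50 ran from -2.78 to -1.71 over all 17 alternatives. Among these, the fits with 1 array left out gave -2.78 to -2.13. Without c-kit-negative replicate 2 Prdm16, named after its values were seen, fell as well.

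Meiosis and male differentiation switch on a further set of germ cell genes later. Of these 12 measured, 2 rose and 0 fell, with a median difference of 0.24. Sycp1, a gene of the synaptonemal complex, was at 4.47, 4.29 and 4.27 in c-kit-positive and 3.15, 3.44 and 3.24 in c-kit-negative replicates 1 to 3 (2.10-fold, adjusted p = 0.00295, limma). These are dim values, as the lower quartiles of the arrays ran from 4.14 to 4.28, and the filters on dim genes left Sycp1 untested. Lefty2, a Nodal antagonist gene, was 1.64-fold higher (adjusted p = 0.0486, limma) and passed in no fit with an array left out.

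**Figure D4:**
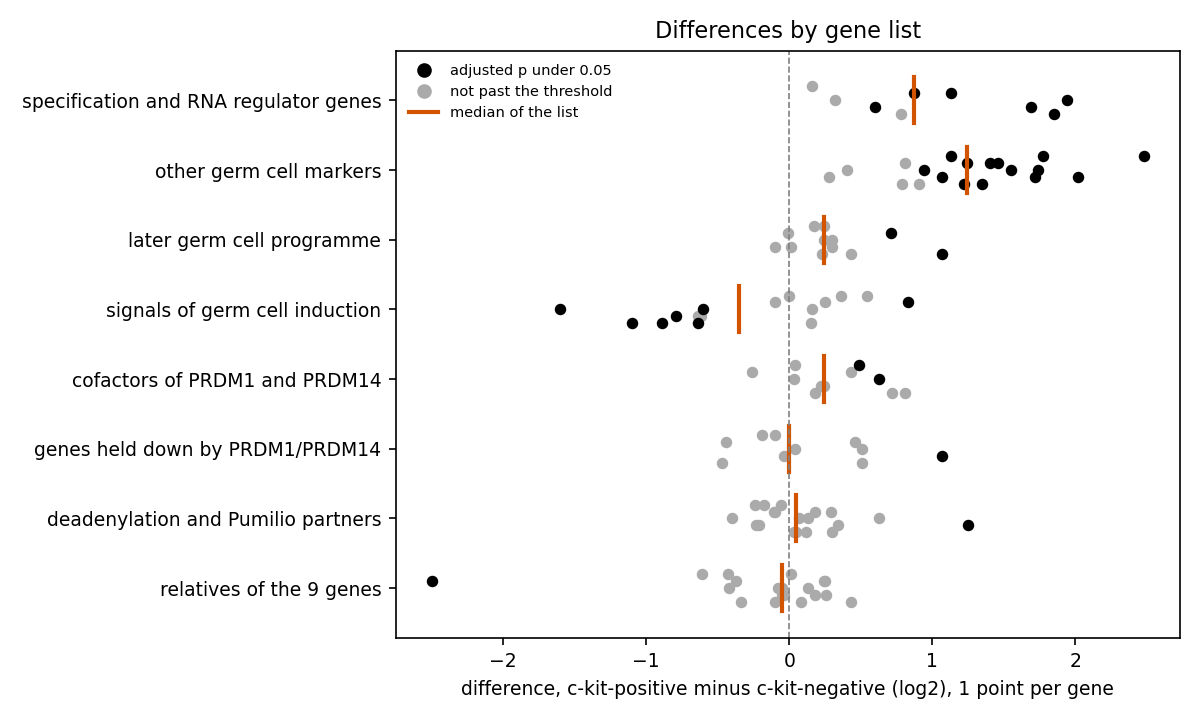
Difference in log2 expression, c-kit-positive minus c-kit-negative (horizontal axis), with 1 point per gene for the 9 genes and 7 lists; black points have an adjusted p under 0.05 in limma and orange bars are list medians. The medians are 0.87 for the 9 genes, with Dppa3 by its brighter probe set, and 1.24 for other germ cell markers. Those of the remaining lists lie between -0.35 and 0.24.

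Other germ cell markers moved in the same direction as the 9 genes, as earlier results of these data had already shown, so they are not separate evidence. Of 19 genes outside the set 14 rose and 0 fell, with a median difference of 1.24, and all 19 separated the populations. The count was 9 without c-kit-positive replicate 1 or 3. Sycp3 of the synaptonemal complex rose 5.59-fold, Asz1 and Mael of the piRNA pathway 4.04-fold and 3.30-fold, Dppa2 3.35-fold and the pluripotency factor gene Sox2 2.93-fold. The mean level of the 19 markers was 8.22, 7.81 and 8.03 in c-kit-positive and 6.65, 6.73 and 6.84 in c-kit-negative replicates 1 to 3. That of the 9 genes was 7.73, 7.45 and 7.42 in c-kit-positive and 6.53, 6.49 and 6.46 in c-kit-negative replicates 1 to 3.

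Markers of other cell types of the region were examined on the same arrays. All 8 endothelial markers fell, among them Kdr (29.3-fold lower), Cdh5, Emcn, Tek and Eng, with a mean level of 5.60 to 6.04 in c-kit-positive and 8.92 to 9.14 in c-kit-negative arrays. Of 10 macrophage markers 3 fell (Csf1r, Ctss and Tyrobp) and 0 rose, with mean levels of 5.67 to 5.85 in c-kit-positive arrays and of 7.37, 6.40 and 6.14 in c-kit-negative replicates 1 to 3; Tyrobp passed in no fit with an array left out, and without c-kit-positive replicate 1 only 1 fell. Of 6 blood progenitor markers 3 rose (Myb, Hlf and Spn) and 0 fell, with mean levels of 7.0 to 7.10 in c-kit-positive and 6.32 to 6.51 in c-kit-negative arrays; with any 1 array left out Spn did not pass (adjusted p of 0.0605 to 0.139, limma). None of 8 markers of gonadal ridge and mesonephros passed in limma, and 0 had an unadjusted p under 0.05, with mean levels of 5.49 to 5.53 in c-kit-positive and 5.46 to 5.75 in c-kit-negative arrays; Emx2 had the smallest p, with a difference of -0.41. Without detection calls no marker list can be called absent, and the part of these cells in the values of Prdm1, which macrophages also make, was not tested; of the 10 macrophage markers, 3 fell and 7 did not pass.

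**Figure D5:**
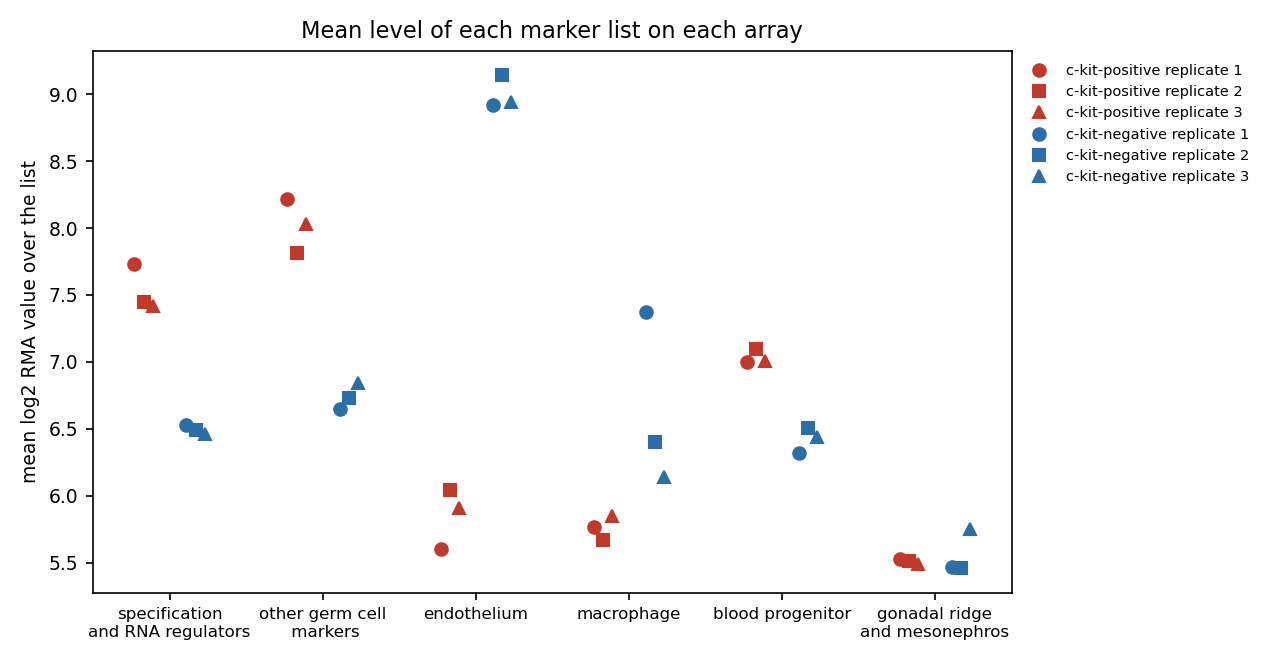
Mean log2 expression value over each marker list (vertical axis) on each array, c-kit-positive in red on the left and c-kit-negative in blue on the right. Germ line lists are higher and endothelial markers lower on the c-kit-positive arrays, and gonadal ridge and mesonephros markers overlap.

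Within the c-kit-positive population the genes of the set tended to be highest on the same array. Replicate 1 held the highest c-kit-positive value for 7 of the 9 genes, all but Prdm1 and Tfap2c, for 11 of the 19 other germ cell markers and for 7031 of 19937 genes. In the c-kit-negative population Prdm14, Tfap2c, Nanos2 and Dazl were highest on replicate 1, Dppa3, Dnd1 and Ddx4 on replicate 2, and Prdm1 and Nanos3 on replicate 3.

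The genes whose pattern lay nearest to each called gene were taken by the root mean square distance between values centred on their mean over the 6 arrays, a distance that follows mostly the size of the difference between populations. Nearest to Dazl were Lncenc1, a long noncoding RNA gene of embryonic stem cells (0.103 log2 units), and Trap1a (0.125). Nearest to Ddx4 were Rpp38, which encodes a subunit of ribonuclease P (0.073), and Rnf17, a Tudor domain gene of the germ line (0.122). Nearest to Prdm14 were Ddx4 (0.146) and Rpp38 (0.173), so Rpp38 stood near both. Lncenc1 was at 8.07, 7.88 and 8.06 in c-kit-positive and 6.31, 6.18 and 6.17 in c-kit-negative replicates 1 to 3, and Rpp38 at 7.94, 7.74 and 7.47 in c-kit-positive and 5.96, 6.19 and 5.95 in c-kit-negative replicates 1 to 3. Rpp38 had the same array order among c-kit-positive replicates as Ddx4 and Prdm14. Nearest to Prdm1 were Rsl24d1 and Riok2 of ribosome assembly (0.043 and 0.047), and nearest to Tfap2c were Esco2 and Rab11fip1 (0.102 and 0.104). Dppa3, by its brighter probe set, had Gtf3c3 and Cul2 nearest (0.054 and 0.068). Neighbours of its dimmer probe set, which differed more between the populations, were not sought.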

How the data were processed

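Total RNA of 6 sorted samples (5 ng each, amplified with NuGEN's Ovation Pico system, per the labels' protocols) was measured on 1 array each. The authors deposited log2 values; per the submitters' processing notes the tool was RMA. Its version and settings: not given in the sources used here. Background correction and amplification from little RNA can compress fold changes.

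Of 34760 probe sets, 21640 had 1 gene in the platform annotation, 1321 had several, and 11799 were unlisted and are unnamed here. They covered 19937 genes, each represented by its brightest probe set. All 9 genes matched the RefSeq gene table by Entrez identifier.

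Differences are c-kit-positive minus c-kit-negative, from limma 3.58.1 (R 4.3.3; lmFit, eBayes, two-sided, neither filter nor block); p-values were adjusted across all 19937 genes by the method of Benjamini and Hochberg. The procedure was tested on simulated data. An exact permutation test of 3 arrays against 3 cannot go below p = 0.1, so none was run.

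The genes and lists were chosen with earlier results of these data known. Genes named are the 9, those of the sort gate, up to 5 called genes of each list by p (if none was called, the one of smallest p), and the 2 nearest genes of each called gene of the set, leaving out numbered gene models and small RNAs. Alternatives were other centring and normalization, filters on dim genes, other uses of probe sets, other variance models, a replicate block, a stricter threshold and leaving out each array.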

Additional observations from a re-analysis of the deposited data

How the results depend on the processing

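Each of the 9 differences stayed above 0 under every one of 17 alternatives that could include the gene; without the dimmest 50% of genes Nanos2 and Dnd1 were not tested. The count of the set called higher was 5 or 6 under 16 of them and 3 without variance moderation, where the estimates were the same but Prdm1 (0.60), Tfap2c (1.13) and Dppa3 (0.87) did not pass. That setting called 66 genes higher and 216 lower. By list it called 0 higher and 3 lower induction genes, 1 cofactor, 0 genes held down by PRDM1 or PRDM14, 0 deadenylation partners, 0 relatives lower, 1 later gene, 2 other germ cell markers, 5 endothelial markers lower, 0 macrophage markers lower and 0 blood progenitor markers. At an adjusted p under 0.01 there were 131 genes higher and 499 lower, Prdm1 (0.60) did not pass, and the lists gave 0 higher and 3 lower induction genes, 0 cofactors, 0 held-down genes, 1 later gene, 8 other germ cell markers and 1 macrophage marker lower. Cofactor calls numbered 1 with quantile normalization, with the mean of probe sets and with all probe sets tested. Later genes called numbered 1 with quantile normalization, array weights, all probe sets or without the dimmest 30% of genes, where 4 of them were tested, and 0 without the dimmest 50%, where 0 were tested. Deviations of same-numbered arrays from their population means correlated at 0.001, 0.024 and 0.059 for numbers 1, 2 and 3. Arrays of unlike number gave -0.057 to 0.036. The labels do not say whether same-numbered samples came from the same embryos, and these correlations cannot decide it. With the replicate block 476 genes were higher and 879 lower, and 5 genes of the set and 0 cofactors were called. Prdm1 (0.60) then had an adjusted p of 0.0683 in limma. Leaving out 1 array at a time gave 276 to 369 genes higher and 670 to 745 lower, 0 to 2 induction genes higher and 3 to 4 lower, 0 to 1 cofactors and held-down genes, 1 to 2 relatives lower, 1 later gene, 9 to 14 other germ cell markers and 1 to 2 macrophage markers lower. The Prdm1 difference then ran from 0.56 to 0.66, that of Nanos3 from 0.60 to 0.97, and that of Ptprc from -0.51 to 0.09, turning positive without c-kit-negative replicate 1. Apart from construction (fewer genes, fewer arrays), the cause of these shifts was not tested.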
